A study of Arabidopsis thaliana with 20 samples.

Results

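The 6 genes described here encode GH3 enzymes that attach amino acids to auxin in Arabidopsis thaliana: GH3.1 (AT2G14960), GH3.2 (AT4G37390), GH3.3 (AT2G23170), GH3.5 (AT4G27260), GH3.6 (AT5G54510) and GH3.17 (AT1G28130). They were taken by locus from a list of members and make up 6 of the 36799 genes in the count tables. All 6 passed the filter on low counts and are among the 21987 genes tested. Poly(A) RNA of whole green seedlings, 5 days old and grown in short days on sucrose-containing medium, was sequenced in 20 libraries. The 10 groups were 5 genotypes at 2 temperatures, with 2 replicates each. Seedlings either stayed at 21 °C or were kept at 27 °C for 4 h, beginning 4 h and ending 8 h after dawn (ZT4 to ZT8). The genotypes were Col-0 wild type, ein2 (allele ein2-5), ein3 eil1 (alleles ein3-1 and eil1-1), lhp1 (allele lhp1-3) and ein2 lhp1 (ein2-5 with lhp1-3), each mutant represented by a single allele or allele pair. EIN2 is a membrane protein that passes on the ethylene signal, EIN3 and EIL1 are the transcription factors it acts through, and LHP1 is a chromatin protein of the polycomb system. The labels do not say whether replicates came from separately grown plants or at what hour the 21 °C seedlings were collected. If that hour was not ZT8, temperature and time of day cannot be told apart in the comparisons of 27 with 21 °C.

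Auxin (indole-3-acetic acid, IAA) promotes the elongation of the seedling stem, and in Arabidopsis warmth and shade raise its synthesis. GH3 enzymes of this group join IAA to an amino acid such as aspartate or glutamate, which takes the hormone out of the active pool, and many of their genes are among the early genes switched on by auxin itself through ARF transcription factors. Conjugates with aspartate and glutamate are mostly oxidised, while some others can be split again by amidohydrolases such as IAR3.

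The libraries held from 24153109 to 47566071 counts in total, with both mates of a fragment counted singly. The mutated genes followed their labels with an exception: LHP1 in lhp1 at 21 °C was at 9.53 and 9.33 CPM against 12.1 and 11 CPM in wild type, a log2 difference of -0.29 that was not called (adjusted p 0.0774, edgeR's quasi-likelihood test). CPM is the count of a gene scaled to the size of its library. EIL1 was also called lower than in wild type in ein2 (log2 -0.66 at 21 °C and -0.89 at 27 °C) and ein2 lhp1 (-0.6 and -0.45). EIN2 was called lower in ein3 eil1 as well (-0.3 and -0.57). A list of 13 seed genes summed to 10.9 to 14.7 CPM in wild type, 320 to 476 in ein2, 95.3 to 106 in ein3 eil1 and 453 to 818 in ein2 lhp1. In lhp1 it summed to 445 to 446 CPM at 21 °C and 50.5 to 54 CPM at 27 °C. Of these, CRU2 was at 0 in 9 and SESA1 in 6 of the 20 libraries, and in wild type 9 to 11 of the 13 had counts. A list of 7 root genes summed to 105 to 143 CPM in ein3 eil1, 134 to 169 CPM in ein2 and 176 to 235 CPM in the other genotypes, and a list of 4 leaf photosynthesis genes to 34200 to 70900 CPM. Root and photosynthesis genes had counts in every library. The part of these differences in the results below was not tested, and in whole seedlings fewer cells of a type and less RNA per cell cannot be told apart.

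Levels can be compared between genes only per length of transcript. Per kilobase of exon, wild type at 21 °C held 19.5 CPM of GH3.6, 16.1 of GH3.17, 8.7 of GH3.5, 6.03 of GH3.2, 5.73 of GH3.3 and 0.714 of GH3.1. GH3.1 was thus at the bottom, with 38 to 110 counts per library, and its differences carry the widest intervals. Over the 10 groups, the highest mean was 4.01 times the lowest for GH3.3, 2.37 times for GH3.5, 2.04 times for GH3.1, 1.85 times for GH3.2, and 1.52 times for both GH3.6 and GH3.17. For 5 of the 6 genes the lowest group mean was that of lhp1 at 21 °C, and for GH3.17 it was that of ein3 eil1 at 21 °C. Compared with wild type at 21 °C, that lhp1 group was not called for GH3.1 (log2 difference -0.3), GH3.5 (-0.11) or GH3.6 (-0.02). The exons of GH3.2 and GH3.3 share a run of 47 identical bases and those of GH3.5 and GH3.6 a run of 42, the longest among the pairs. Longer stretches that match with some differing bases were not looked for. None of the 6 genes overlaps another annotated gene. On TAIR10.1 they lie at chr2:6451319-6453797 (GH3.1, minus strand), chr4:17579618-17582022 (GH3.2, plus), chr2:9863855-9866562 (GH3.3, minus), chr4:13653579-13656285 (GH3.5, plus), chr5:22130964-22133688 (GH3.6, minus) and chr1:9825169-9828118 (GH3.17, plus), each with 2 introns.

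**Figure D1:**
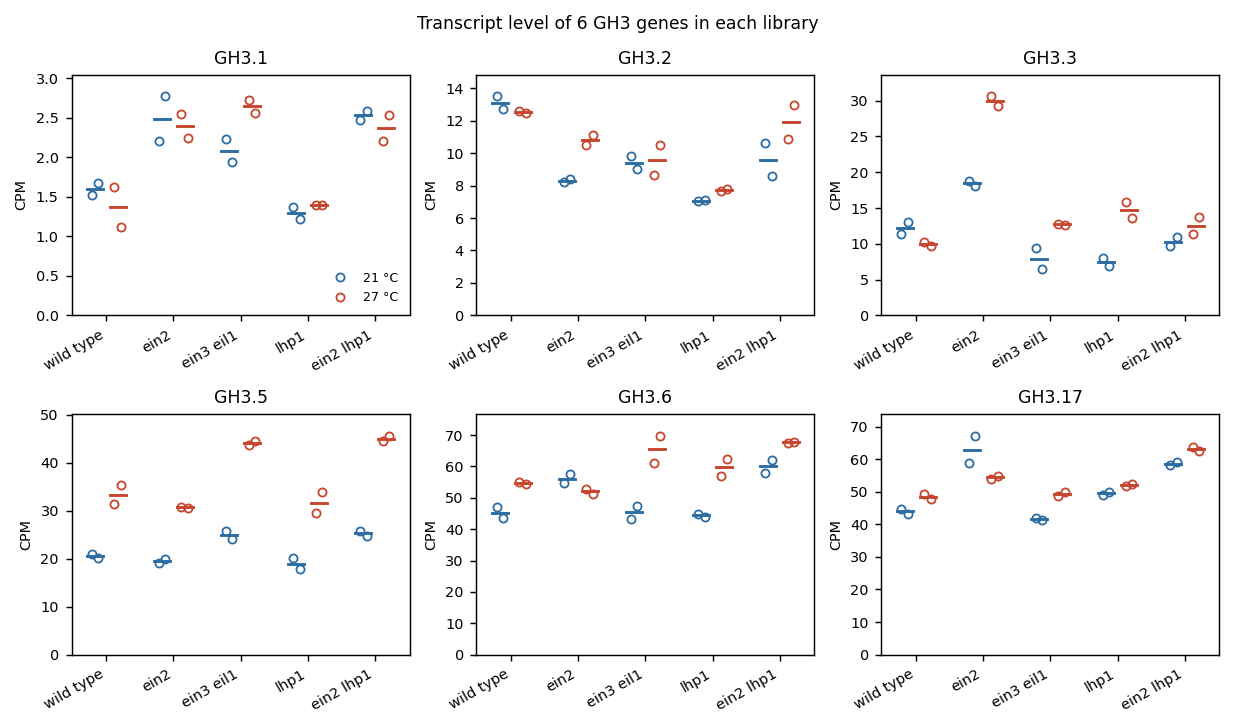
Transcript level of each of the 6 GH3 genes, in CPM (counts scaled to library size, linear axis from 0), by genotype. Open circles are single libraries, short bars the mean of the 2 replicates, blue 21 °C and red 27 °C. GH3.3 reaches 29.9 CPM in ein2 at 27 °C, while GH3.5 is higher at 27 °C in every genotype.

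The sequence upstream of 4 of the genes is shown. In the results below, GH3.2 and GH3.3 differed between genotypes, and GH3.3 also changed with temperature in mutants. GH3.5 and GH3.6 rose with temperature, though GH3.6 did not in ein2. Both also differed from wild type in some mutants. GH3.1 and GH3.17 are not shown, although GH3.17 was called in 15 of the tests below and GH3.2 in 11. Each line gives the 250 bases before the annotated start, read 5′ to 3′ on the strand of the gene from the RefSeq assembly TAIR10.1. The loci of the 6 genes have the same start and end there as in the count tables. Capitals mark every match, on either strand, to TGTCTC (the auxin response element bound by ARF factors), CACGTG (the G-box) and CACATG (the PBE-box), the last pair being sites that bHLH factors such as the PIFs can bind. The regions are chr4:17579368-17579617 (plus strand, GH3.2), chr2:9866563-9866812 (minus strand, GH3.3), chr4:13653329-13653578 (plus strand, GH3.5) and chr5:22133689-22133938 (minus strand, GH3.6).
GH3.2: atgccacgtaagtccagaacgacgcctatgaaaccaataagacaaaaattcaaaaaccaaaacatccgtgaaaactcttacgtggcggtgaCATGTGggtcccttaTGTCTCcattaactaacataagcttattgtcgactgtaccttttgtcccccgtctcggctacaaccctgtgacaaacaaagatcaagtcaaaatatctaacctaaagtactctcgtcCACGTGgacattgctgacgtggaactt
GH3.3: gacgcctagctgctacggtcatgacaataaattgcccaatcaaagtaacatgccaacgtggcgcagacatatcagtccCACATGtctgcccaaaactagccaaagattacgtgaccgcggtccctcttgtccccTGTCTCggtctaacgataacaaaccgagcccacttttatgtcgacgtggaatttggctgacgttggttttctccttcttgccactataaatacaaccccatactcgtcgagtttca
GH3.5: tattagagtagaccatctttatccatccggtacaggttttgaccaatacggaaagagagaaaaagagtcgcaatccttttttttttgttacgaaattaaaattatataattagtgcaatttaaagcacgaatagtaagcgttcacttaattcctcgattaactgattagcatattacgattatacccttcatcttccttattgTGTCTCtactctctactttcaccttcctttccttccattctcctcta
GH3.6: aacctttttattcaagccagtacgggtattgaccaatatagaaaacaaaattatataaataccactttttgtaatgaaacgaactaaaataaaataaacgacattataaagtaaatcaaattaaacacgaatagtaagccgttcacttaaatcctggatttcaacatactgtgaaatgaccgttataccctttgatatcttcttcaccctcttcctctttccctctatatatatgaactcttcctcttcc
TGTCTC was found in 3 of the 6 genes, GH3.2, GH3.3 and GH3.5, and in 10.9% of 27443 promoters of protein-coding genes of the same length. It lies 144 to 139 bases before the start of GH3.2, 116 to 111 before that of GH3.3 and 47 to 42 before that of GH3.5. CACATG was found in GH3.2 (on the minus strand) and GH3.3 and in 11.1% of all promoters, and CACGTG in GH3.2 alone among the 6 and in 6.49% of all promoters. TGTCGG, a variant to which ARF factors bind more tightly, was in none of the 6 windows and in 4.18% of all promoters. GH3.5 and GH3.6 share the run cacgaatagtaagc, the longest common stretch, at 14 bases, of any pair among the 6 windows. These are matches of letters and not measured sites.

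The first question was which of these genes respond to 4 h at 27 °C. GH3.5 rose in all 5 genotypes and GH3.6 in 4 of them, GH3.3 rose in the 3 single-pathway mutants ein2, ein3 eil1 and lhp1 but not in wild type, and GH3.1 was called in no genotype. The threshold for a call was an adjusted p of 0.05 over all 21987 genes in edgeR's quasi-likelihood test. In wild type 2 of the 6 genes were called, where 39.2% of all genes tested were. For lhp1 the number was 3 of 6 (31.7% of all genes), for ein2 lhp1 2 of 6 (29%), for ein2 4 of 6 (27.1%) and for ein3 eil1 4 of 6 (36.8%). Of these 15 calls, 14 were increases, where increases alone made up 18.8% of all genes in wild type, 16.2% in lhp1, 14.3% in ein2 lhp1, 11.8% in ein2 and 16.9% in ein3 eil1. The median log2 change of the 6 genes was 0.04 in wild type, 0.28 in lhp1, 0.23 in ein2 lhp1, 0.16 in ein2 and 0.44 in ein3 eil1, and that of all genes lay between -0.01 and 0. The shares in wild type and ein2 lhp1 are close to the background.

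**Figure D2:**
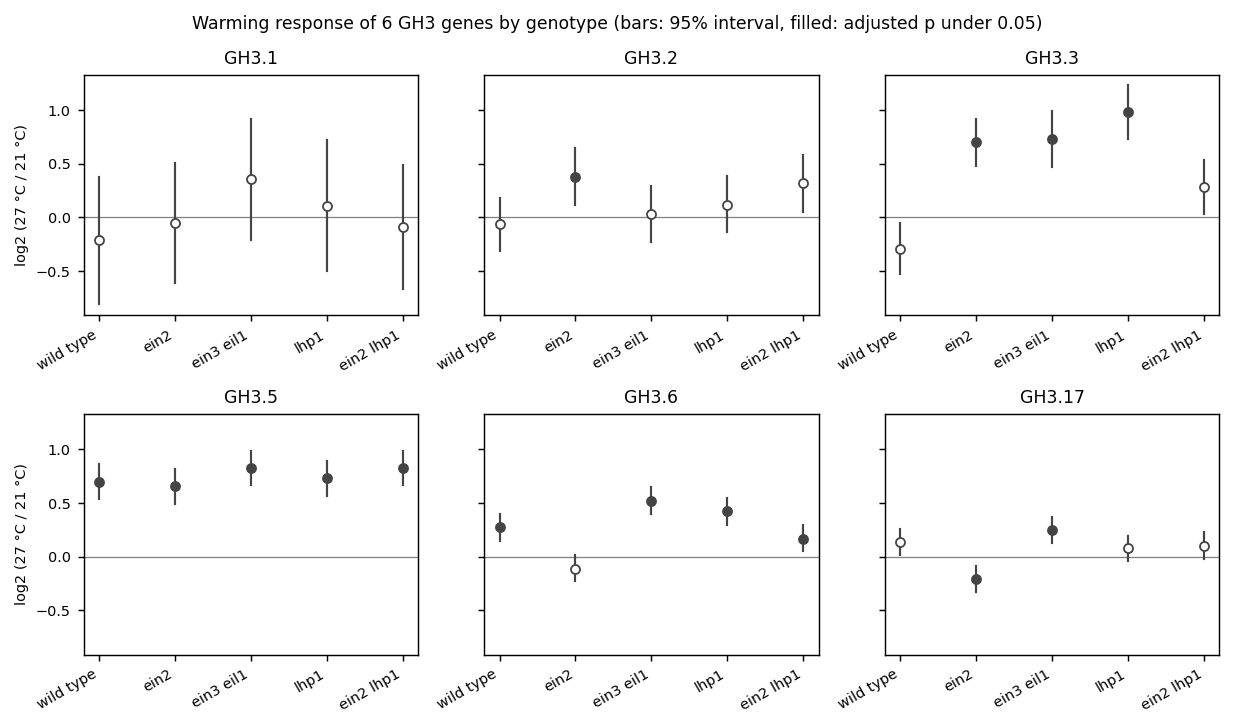
Log2 ratio of 27 °C to 21 °C for each GH3 gene in each genotype, with 95% intervals, filled where the adjusted p was under 0.05. GH3.5 lies between 0.66 and 0.83 in all 5 genotypes, and GH3.3 runs from -0.29 in wild type to 0.98 in lhp1.

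GH3.5 encodes an enzyme that acts on IAA and also on salicylic acid, and its overexpression dwarfs the plant. It was at 21 and 20.1 CPM at 21 °C and at 31.3 and 35.4 CPM at 27 °C in wild type. In ein2 it was at 19.1 and 19.9, then 30.8 and 30.6 CPM, and in lhp1 at 20.1 and 17.8, then 29.5 and 33.8 CPM. Every 27 °C library of these genotypes lay above every 21 °C library. The libraries of the 2 temperatures did not overlap for 68.6% of all genes in wild type, 59.8% in ein2 and 65.2% in lhp1. In ein3 eil1 GH3.5 was at 25.8 and 24, then 43.6 and 44.4 CPM. In ein2 lhp1 it was at 25.8 and 24.8, then 44.4 and 45.6 CPM. These are the 2 genotypes with the higher GH3.5 at either temperature. The log2 changes were 0.70 ± 0.08 (SE) in wild type, 0.73 ± 0.081 in lhp1, 0.83 ± 0.081 in ein2 lhp1, 0.66 ± 0.083 in ein2 and 0.83 ± 0.079 in ein3 eil1, with adjusted p from 1.57e-14 to 9.36e-10 in edgeR. The wild-type change and those in the mutants differed by -0.04 to 0.13 log2 units, and none of these differences was called. The 95% interval of the difference reached from -0.28 to 0.19 in ein2 and from -0.10 to 0.36 in ein2 lhp1. Differences in response within those bounds remain possible.

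GH3.6, whose overexpression shortens the stem in light-grown plants, was at 47 and 43.5 CPM at 21 °C and 54.9 and 54.5 CPM at 27 °C in wild type. In ein3 eil1 it was at 43.4 and 47.3, then 61.2 and 69.8 CPM, and in lhp1 at 44.9 and 43.9, then 57.1 and 62.5 CPM. In these genotypes the libraries of the 2 temperatures did not overlap. The same held for 68.6% of all genes in wild type, 66.2% in ein3 eil1 and 65.2% in lhp1. The log2 changes were 0.28 ± 0.062 in wild type (adjusted p 0.00018, edgeR), 0.52 ± 0.062 in ein3 eil1 (7.91e-11) and 0.43 ± 0.062 in lhp1 (3.4e-08). In ein2 the libraries at 27 °C were the lower ones, at 52.8 and 51.3 CPM against 54.6 and 57.6 CPM, but the change of -0.11 ± 0.063 was not called (adjusted p 0.211, edgeR). In ein2 lhp1 GH3.6 went from 58 and 62.1 to 67.5 and 67.9 CPM, a change of 0.17 ± 0.063 (adjusted p 0.0297, edgeR). That call was lost with DESeq2 (0.16), without the first replicate of ein2 lhp1 at 21 °C (0.12), and when replicate 1 (0.18) or 2 (0.17) of that genotype at 27 °C was left out.

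GH3.3, which with GH3.5 and GH3.6 acts in the formation of adventitious roots, was at 11.3 and 13 CPM at 21 °C in wild type and at 10.2 and 9.69 CPM at 27 °C. The log2 change of -0.29 ± 0.12 missed the threshold narrowly (adjusted p 0.0515, edgeR). It was called in 12 of 28 alternative settings. A further one, a minimum change of 1 log2 unit, was applied to counts of calls alone and is not among the 28. The 12 included scaling by relative log expression (-0.29) and a gene length correction (-0.34). The change was also called without replicate 1 of wild type at 21 °C (-0.38). So it was without either library of ein3 eil1 at 21 °C or any of the 4 libraries of ein2 lhp1 (-0.29). Without replicate 2 of wild type at 21 °C it was -0.18 and not called. In ein2, ein3 eil1 and lhp1 it rose. GH3.3 went from 18.8 and 18.1 to 30.6 and 29.2 CPM in ein2, from 9.38 and 6.44 to 12.8 and 12.6 CPM in ein3 eil1, and from 7.98 and 6.95 to 15.9 and 13.6 CPM in lhp1. The temperatures did not overlap in any of the 3, as for 59.8% of all genes in ein2, 66.2% in ein3 eil1 and 65.2% in lhp1. The log2 changes were 0.70 ± 0.11 in ein2 (adjusted p 4.95e-07, edgeR), 0.73 ± 0.13 in ein3 eil1 (2.84e-06) and 0.98 ± 0.12 in lhp1 (5.94e-10). The value in ein3 eil1 was 0.44 and still called without its replicate 2 at 21 °C. Of 13 seed genes, all were lower at 27 °C in lhp1, 9 in ein2 and 2 in wild type. In ein3 eil1 6 were lower and 2 higher, and in ein2 lhp1 9 were higher and none lower. Of all genes, 15.6% were lower in lhp1, 15.4% in ein2, 20.3% in wild type and 19.9% in ein3 eil1. Higher were 16.9% in ein3 eil1 and 14.3% in ein2 lhp1. In ein2 lhp1 the GH3.3 libraries were at 9.73 and 10.9, then 11.3 and 13.7 CPM. That change of 0.28 ± 0.13 was not called (adjusted p 0.0922, edgeR). It was 0.41 and called without replicate 1 of ein2 lhp1 at 27 °C.

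GH3.17 prefers glutamate as the amino acid it joins to IAA, is known to limit stem elongation, and unlike the others is hardly induced by auxin. Its log2 changes with temperature lay between -0.21 and 0.25. It went from 44.8 and 43.3 to 49.3 and 47.7 CPM in wild type (log2 change 0.14 ± 0.06, adjusted p 0.0578, edgeR; called without replicate 1 of ein2 at 21 °C, 0.14) and from 41.8 and 41.2 to 48.8 and 49.9 CPM in ein3 eil1 (0.25 ± 0.062, 0.000616). In ein2 it fell, from 58.7 and 67.2 to 54 and 54.8 CPM. That change of -0.21 ± 0.059 (adjusted p 0.00462, edgeR) rested in part on a single library, since without replicate 2 of ein2 at 21 °C it was -0.11 and not called. In lhp1 (49 and 50, then 51.8 and 52.5 CPM) and in ein2 lhp1 (58.1 and 59.2, then 63.7 and 62.4 CPM) the changes of 0.08 and 0.10 were not called.

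GH3.2, whose overexpression gives short stems, was called for warming in ein2 alone. It went there from 8.23 and 8.38 to 10.5 and 11.1 CPM, by 0.38 ± 0.13 log2 units (adjusted p 0.0224, edgeR), a call lost without replicate 1 (0.37) or 2 (0.40) of ein2 at 21 °C or replicate 2 at 27 °C (0.34). In the other genotypes its changes lay between -0.06 and 0.32. The largest, in ein2 lhp1, was called without replicate 1 of that genotype at 21 °C (0.48) or 27 °C (0.43). GH3.1 ranged from 1.12 to 2.77 CPM over all libraries, and its changes with temperature, from -0.21 to 0.36 with SE of 0.28 to 0.3, were not called.

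Whether the response to warming differs between genotypes was tested directly. A joint test of the 4 differences from wild type called GH3.3 (adjusted p 1.84e-08, edgeR), GH3.6 (5.69e-08) and GH3.17 (0.00012), 3 of the 6 genes where 40.9% of all genes were called. In single comparisons with wild type, 3 of 6 genes were called in ein2 (24.1% of all genes), and GH3.3 alone, 1 of 6, in lhp1 (20.6%), ein2 lhp1 (16.9%) and ein3 eil1 (9.46%). GH3.3 was thus the gene called in each of the 4 mutants. Its response exceeded that of wild type by 1.27 ± 0.17 in lhp1 (adjusted p 1.21e-08, edgeR), 1.02 ± 0.18 in ein3 eil1 (1.42e-05), 0.99 ± 0.17 in ein2 (1.71e-06) and 0.57 ± 0.18 in ein2 lhp1 (0.0159). The first 3 were called under all 28 alternatives, and of these the value in ein2 falls short of a minimum change of 1 log2 unit. That in ein2 lhp1 was lost without replicate 2 of wild type at 21 °C (0.46) or 27 °C (0.54), replicate 1 of ein2 lhp1 at 21 °C (0.49) or replicate 2 at 27 °C (0.42). The 4 comparisons share the wild-type libraries. Marker genes differed in response as well. Of 7 root genes the response was lower than in wild type for 5 in ein2, 4 in ein3 eil1 and 5 in lhp1 and higher for none, and in ein2 lhp1 it was higher for 1 and lower for 1. Of 13 seed genes it was lower for 3 in ein2, 2 in ein3 eil1 and 10 in lhp1, and higher for 5 in ein2 lhp1. Of 4 photosynthesis genes it was higher for 3 and lower for 1 in both ein2 and lhp1, lower for 1 in ein3 eil1 and higher for 3 in ein2 lhp1. Of all genes, 5.39% to 12.2% had a lower and 4.07% to 12.4% a higher response than in wild type, depending on the mutant. The part of the marker genes in the GH3.3 differences was not tested.

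In ein2 the response of GH3.6 was the lower one by 0.38 log2 units, compared with wild type (-0.38 ± 0.088, adjusted p 0.000474, edgeR), under all 28 alternatives. That of GH3.17 differed by -0.35 ± 0.085 (adjusted p 0.00095, edgeR). With a gene length correction the GH3.17 difference became -0.17 and was not called. GH3.17 has the longest exons of the 6 genes, at 2737 bp against 2118 to 2357 bp in the others. The response of GH3.5 showed no called difference in any mutant, and neither did those of GH3.1 and GH3.2. For GH3.2 in ein2 the difference was 0.44 ± 0.18 (adjusted p 0.0636, edgeR), called with a gene length correction (0.54). For GH3.6 in ein3 eil1 it was 0.25 (0.0648), called in 7 of 28 alternatives, among them without replicate 2 of wild type (0.30) or ein3 eil1 (0.32) at 21 °C or replicate 1 of ein3 eil1 at 27 °C (0.34). For GH3.1 the intervals were wide, from -0.66 to 0.98 in ein2.

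The next comparison set each mutant against wild type at the same temperature. At 21 °C, GH3.2 was lower in all 4 mutants, GH3.3 was higher in ein2 and lower in ein3 eil1 and lhp1, and GH3.17 was higher in every mutant but ein3 eil1. Called were 4 of the 6 genes in ein2 (35.9% of all genes), 4 in ein2 lhp1 (33.8%), 3 in lhp1 (28.3%) and 3 in ein3 eil1 (31.5%). At 27 °C, GH3.3 was higher in all 4 mutants, and 3 of 6 genes were called in ein2 (38.1% of all genes), 5 in ein2 lhp1 (47%), 2 in lhp1 (26.7%) and 5 in ein3 eil1 (36.6%). Of the 15 calls at 27 °C, 9 were made without replicate 2 of wild type. The median log2 difference of the 6 genes was 0.42 in ein2 at 21 °C and 0.36 in ein2 lhp1 at both temperatures, and between -0.20 and 0.30 in the others, while the median of all genes was within 0.01 of 0.

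**Figure D3:**
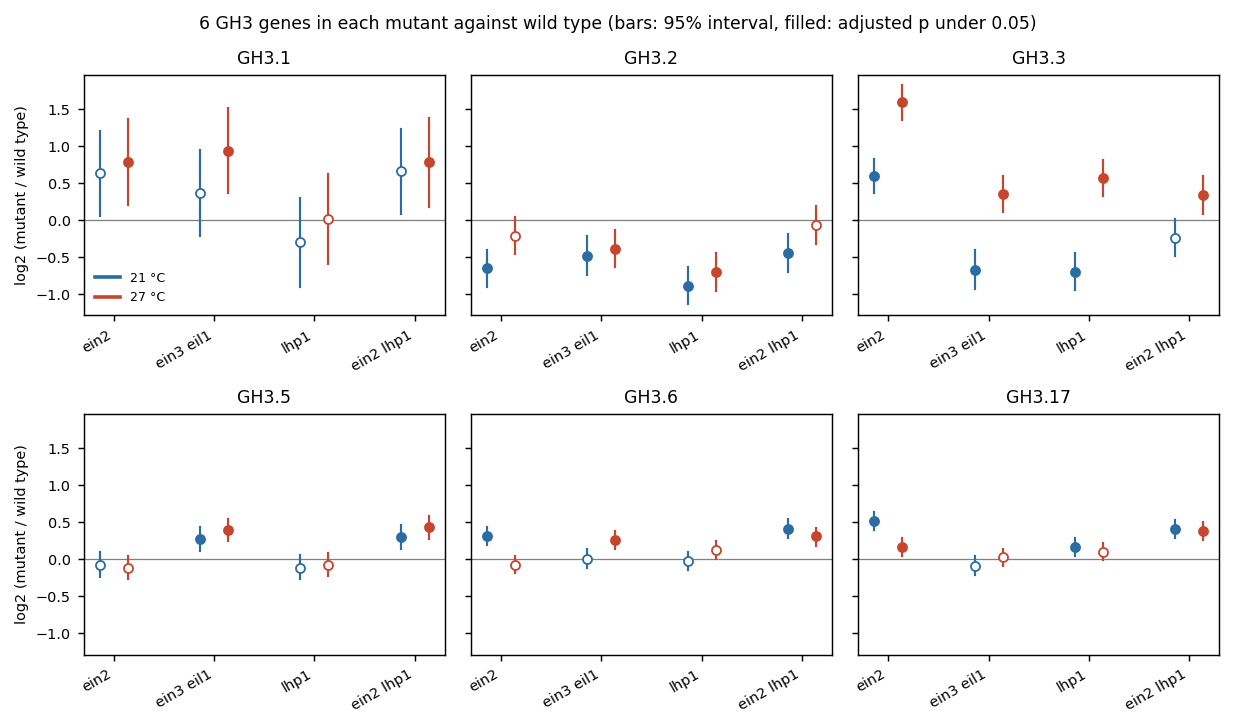
Log2 ratio of each mutant to wild type at 21 °C (blue) and 27 °C (red) for each GH3 gene, with 95% intervals, filled where the adjusted p was under 0.05. GH3.2 lies below 0 in all 8 comparisons. GH3.3 in ein3 eil1 and lhp1 lies below 0 at 21 °C and above 0 at 27 °C, and reaches 1.59 in ein2 at 27 °C.

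In wild type GH3.2 stood at 13.5 and 12.7 CPM at 21 °C and 12.6 and 12.5 CPM at 27 °C, the 2 highest of the 10 group means. At 21 °C the mutants held 8.23 and 8.38 CPM (ein2), 9.84 and 9 CPM (ein3 eil1), 7.02 and 7.13 CPM (lhp1) and 10.6 and 8.59 CPM (ein2 lhp1). No mutant library reached the wild-type libraries. Mutant and wild-type libraries at 21 °C did not overlap for 62.9% (lhp1) to 66.4% (ein2) of all genes. The log2 differences were -0.89 ± 0.13 in lhp1 (adjusted p 3.59e-08, edgeR), -0.65 ± 0.13 in ein2 (2.52e-05), -0.48 ± 0.13 in ein3 eil1 (0.00194) and -0.44 ± 0.13 in ein2 lhp1 (0.00427). The call in ein3 eil1 was lost without its replicate 2 (-0.41) and that in ein2 lhp1 without its replicate 2 (-0.30). At 27 °C GH3.2 was lower in lhp1, at 7.66 and 7.77 CPM (-0.70 ± 0.13, adjusted p 8.49e-06, edgeR). In ein3 eil1 it was at 8.64 and 10.5 CPM (-0.39 ± 0.13, 0.00971), a difference of -0.26 and not called without replicate 1 of that group, and not called (-0.39) without replicate 1 of wild type. In ein2 (10.5 and 11.1 CPM) and ein2 lhp1 (10.9 and 13 CPM) the differences of -0.21 and -0.07 were not called.

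For GH3.3 the order of the 10 group means ran from ein2 at 27 °C (29.9 ± 0.985 CPM, SD, n = 2) over ein2 at 21 °C (18.4 ± 0.505) and lhp1 at 27 °C (14.7 ± 1.65) down to ein3 eil1 (7.91 ± 2.07) and lhp1 (7.47 ± 0.731) at 21 °C. The top pair stood clear of all other groups. Among neighbours in the order, ein3 eil1 and ein2 lhp1 at 27 °C and wild type at 21 °C overlapped in turn, as did ein2 lhp1 at 21 °C with wild type at 27 °C, and the lowest pair. Against wild type at 21 °C, GH3.3 was higher in ein2 (0.60 ± 0.12, adjusted p 2.13e-05, edgeR) and lower in lhp1 (-0.70 ± 0.13, 5.04e-06) and ein3 eil1 (-0.67 ± 0.13, 1.87e-05). The last value was -0.38 and not called without replicate 2 of ein3 eil1 at 21 °C. In ein2 lhp1 the difference of -0.24 ± 0.12 missed the threshold (adjusted p 0.14, edgeR).

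At 27 °C GH3.3 stood 1.59 ± 0.12 log2 units above wild type in ein2, a fold of 3 (adjusted p 1.05e-19, edgeR). It was also higher in lhp1 (0.57 ± 0.12, 9.82e-05), ein3 eil1 (0.35 ± 0.12, 0.0177) and ein2 lhp1 (0.34 ± 0.13, 0.0239). The call in ein3 eil1 was lost without replicate 2 of wild type (0.31) or either of its own libraries (0.33 and 0.36). That in ein2 lhp1 was lost without either wild-type library (0.37 and 0.30) and without its own replicate 2 (0.18). EIN2 acts through EIN3 and EIL1, yet the 2 ethylene mutants stood apart for GH3.3: ein2 was above ein3 eil1 by 1.27 ± 0.13 at 21 °C (adjusted p 7.67e-14, edgeR) and 1.24 ± 0.11 at 27 °C (1.54e-15). In that comparison 4 of 6 genes were called at 21 °C (44.9% of all genes) and 4 of 6 at 27 °C (47.8%). GH3.5 was lower in ein2 than in ein3 eil1 at both temperatures (-0.34 and -0.52) and GH3.17 higher (0.60 and 0.14). GH3.6 was higher at 21 °C (0.30) and lower at 27 °C (-0.33). The GH3.17 difference at 27 °C had an adjusted p of 0.0434 in edgeR and was lost in 8 of 28 alternatives, among them without any 1 of the 4 libraries compared (0.13 to 0.16). Marker genes also differed between these mutants. Of 13 seed genes 6 were higher and 2 lower in ein2 at 21 °C and 6 higher at 27 °C, and of 7 root genes 4 were higher and 1 lower at 21 °C and 6 higher at 27 °C. All 4 photosynthesis genes were lower in ein2 at both temperatures. Of all genes, 23.9% were higher and 21% lower in ein2 at 21 °C, and 25.1% and 22.7% at 27 °C.

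GH3.5 was higher than in wild type in ein3 eil1 and ein2 lhp1. The log2 differences were 0.27 ± 0.083 and 0.30 ± 0.083 at 21 °C (adjusted p 0.0075 and 0.00255, edgeR) and 0.40 ± 0.076 and 0.44 ± 0.078 at 27 °C (9.49e-06 and 2.36e-06). The call in ein3 eil1 at 21 °C was lost without its replicate 1 (0.23) or without replicate 2 of wild type (0.24). In ein2 and lhp1 the differences, from -0.12 to -0.07, were not called. The same pair of genotypes had the highest photosynthesis list sums, at 53100 to 70900 CPM against 34200 to 47700 CPM in the other 3. In every genotype the list sum was lower at 27 °C than at 21 °C, while GH3.5 was higher. The part of the photosynthesis genes in the GH3.5 levels was not tested.

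GH3.6 was higher in ein2 (0.31 ± 0.063, adjusted p 3.22e-05, edgeR) and ein2 lhp1 (0.41 ± 0.063, 1.1e-07) at 21 °C. At 27 °C it was higher in ein3 eil1 (0.26 ± 0.061, 0.000318) and ein2 lhp1 (0.31 ± 0.062, 2.45e-05). The value in ein3 eil1 was 0.16 and not called without replicate 2 of that group. GH3.17 was higher in ein2 (0.52 ± 0.06, adjusted p 2.93e-11, edgeR), lhp1 (0.17 ± 0.06, 0.0259) and ein2 lhp1 (0.41 ± 0.06, 3.5e-08) at 21 °C, and in ein2 (0.17 ± 0.06, 0.0206) and ein2 lhp1 (0.38 ± 0.061, 1.96e-07) at 27 °C. For GH3.17 the call in lhp1 at 21 °C was lost without any 1 of the 4 libraries compared (0.14 to 0.19) and with a gene length correction (0.15). The call in ein2 at 27 °C was lost without either ein2 library (0.18 and 0.16) or replicate 2 of wild type (0.14), and its value was 0.26 with a gene length correction.

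GH3.1 was called at 27 °C in the 3 genotypes that carry an ethylene mutation. At 27 °C wild type held 1.63 and 1.12 CPM, ein2 2.55 and 2.25, ein3 eil1 2.73 and 2.56, ein2 lhp1 2.20 and 2.53, and lhp1 1.4 in both libraries. All libraries of the ethylene mutants lay above those of wild type and lhp1. Relative to wild type GH3.1 stood at log2 0.79 ± 0.29 in ein2 (adjusted p 0.0257, edgeR), 0.93 ± 0.29 in ein3 eil1 (0.00674), 0.78 ± 0.3 in ein2 lhp1 (0.0275) and 0.02 ± 0.3 in lhp1. All 3 calls were lost without replicate 2 of wild type at 27 °C, where the values were 0.55, 0.70 and 0.54. Those in ein2 and ein2 lhp1 were lost without replicate 1 of ein2 (0.70) and replicate 2 of ein2 lhp1 (0.67), respectively, and the latter also in a fit of the compared groups alone (0.78). At 21 °C GH3.1 was at 1.52 and 1.68 CPM in wild type, 2.20 and 2.77 in ein2, 2.23 and 1.94 in ein3 eil1 and 2.47 and 2.59 in ein2 lhp1. Those differences of 0.63, 0.36 and 0.66 were not called.

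The double mutant asks how the loss of LHP1 alters the GH3 levels of ein2, and the reverse. Against ein2, ein2 lhp1 differed in 2 of 6 genes at 21 °C (36.8% of all genes) and 4 of 6 at 27 °C (37.4%). GH3.3 was lower in the double mutant by 0.84 log2 units at 21 °C (-0.84 ± 0.12, adjusted p 3.19e-08, edgeR) and by 1.25 at 27 °C (-1.25 ± 0.12, 1.39e-14). GH3.5 was higher (0.38 and 0.55), and at 27 °C also GH3.6 (0.38) and GH3.17 (0.21). Against lhp1, all 6 genes were higher in the double mutant at 21 °C (35.9% of all genes were called and 19.3% were higher), by 0.24 to 0.96 log2 units. At 27 °C 5 of 6 were higher (34.4% called, 18.6% higher), by 0.18 to 0.76, and GH3.3 was not called (-0.23 ± 0.12, adjusted p 0.136, edgeR). With libraries left out, between 15 and 18 calls were made in place of 17. At 21 °C GH3.1 lost its call against lhp1 without replicate 2 of lhp1 (0.88), GH3.2 without replicate 1 of lhp1 (0.43) or of ein2 lhp1 (0.28), and GH3.3 without replicate 2 of lhp1 or of ein2 lhp1 (0.37 each). At 27 °C GH3.1 lost it without any 1 of the 4 libraries (0.65 to 0.85) and GH3.6 without replicate 1 of lhp1 (0.11) or either library of ein2 lhp1 (0.18 and 0.19). The GH3.3 difference was -0.39 and called when replicate 2 of the double mutant at 27 °C was left out. GH3.17 against ein2 at 21 °C was called without replicate 1 of ein2 (-0.20). The photosynthesis list was higher in the double mutant than in either single mutant, with 4 of 4 genes called in each of the 4 comparisons. Against ein2, 4 of 13 seed genes were higher and 6 lower at 21 °C and 10 higher at 27 °C, and of 7 root genes 1 was higher and 1 lower at 21 °C and 6 higher at 27 °C. Against lhp1, 5 seed genes were higher and 8 lower at 21 °C and 9 higher at 27 °C. Of the root genes 2 were higher and 4 lower, then 2 higher and 3 lower. Of all genes, 17.9% to 19.3% were higher and 15.9% to 19% lower in these 4 comparisons.

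**Figure D4:**
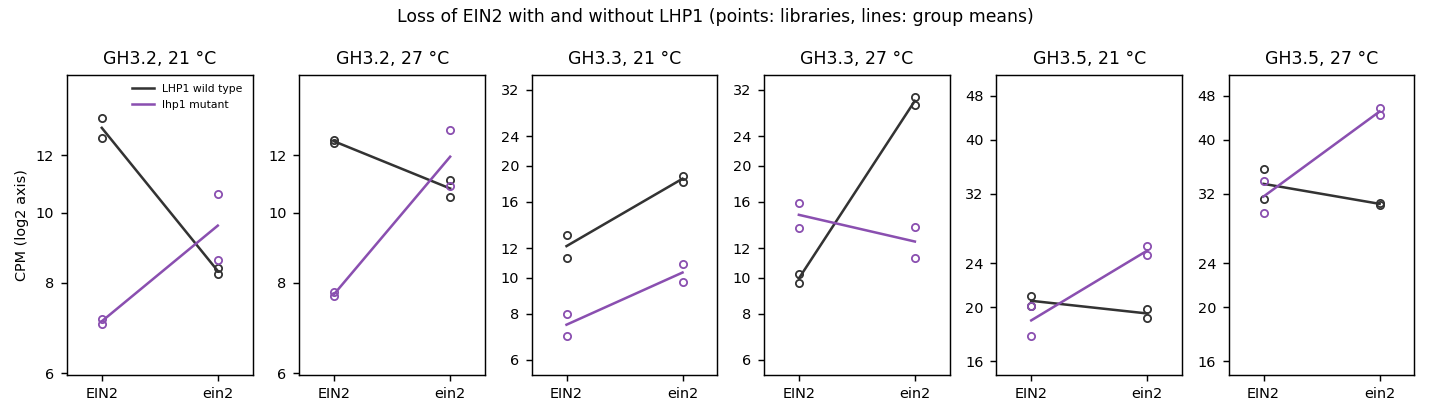
Level in CPM (log2 axis) of GH3.2, GH3.3 and GH3.5 with functional EIN2 and in ein2, in plants with LHP1 (black) and in lhp1 (purple), at each temperature. Circles are libraries and lines join group means. At 27 °C GH3.3 rises with the loss of EIN2 from 9.95 to 29.9 CPM when LHP1 is present, and in lhp1 it goes from 14.7 to 12.5 CPM.

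A test added after the data were seen asked whether ein2 lhp1 departs from the sum of the log2 effects of both single mutants. At 21 °C 3 of 6 genes were called and at 27 °C 4 of 6 (27.2% of all genes at each temperature). GH3.3 departed at 27 °C by -1.82 ± 0.17 (adjusted p 9.28e-15, edgeR), the double mutant lying far under the sum, and not at 21 °C (-0.14 ± 0.18, 0.618). GH3.2 lay above the sum by 1.1 ± 0.19 at 21 °C and 0.84 ± 0.18 at 27 °C (adjusted p 1.94e-06 and 0.000164, edgeR). At 21 °C it was lower in both single mutants, while the double mutant stood at 0.21 ± 0.14 against ein2, a difference that was not called (adjusted p 0.235, edgeR). GH3.5 lay above the sum by 0.48 ± 0.12 and 0.63 ± 0.11 (adjusted p 0.000996 and 3.36e-06, edgeR), each single mutant being near wild type. GH3.17 at 21 °C (-0.27, adjusted p 0.0104, edgeR) was -0.12 and not called with a gene length correction and lost the call without replicate 2 of wild type (-0.25) or ein2 (-0.17). GH3.6 at 27 °C (0.25, adjusted p 0.0229, edgeR) lost its call without replicate 1 of wild type (0.25) or lhp1 (0.18), or replicate 2 of ein2 (0.23) or ein2 lhp1 (0.25). In the same test 11 of 13 seed genes lay under the sum at 21 °C, at 27 °C 6 under and 1 above, and all 4 photosynthesis genes lay above it at both temperatures. Of 7 root genes 2 lay above and 2 under the sum at 21 °C, and 6 above and none under at 27 °C. Of all genes, 14.2% lay above and 13% under it at 21 °C, and 13% above and 14.2% under at 27 °C.

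The response to warming in ein2 lhp1 was also set against each single mutant, again a comparison added after the data were seen. Against ein2, 2 of 6 genes were called (13.2% of all genes): the responses of GH3.17 (0.31 ± 0.085, adjusted p 0.00616, edgeR) and GH3.6 (0.28 ± 0.089, 0.0228) were higher in the double mutant. Against lhp1, 2 of 6 were called (15.2%): those of GH3.3 (-0.70 ± 0.18, adjusted p 0.00323, edgeR) and GH3.6 (-0.25 ± 0.088, 0.0379) were lower. Of the 4 calls, 2 were made with a gene length correction and 2 without replicate 2 of ein2 at 21 °C. The GH3.3 difference was called under all 28 alternatives, whereas GH3.17 lost its call without that ein2 library (0.21) and GH3.6 against lhp1 in 9 of the 28. For GH3.6 against lhp1 these included leaving out either library of lhp1 at 21 °C, replicate 2 of ein2 lhp1 at 21 °C or of lhp1 at 27 °C, or either library of ein2 lhp1 at 27 °C (-0.27 to -0.19). GH3.6 against ein2 lost its call in 6 of the 28 (0.23 to 0.28), among them without replicate 2 of ein2 at either temperature, replicate 1 of ein2 lhp1 at 21 °C or replicate 2 at 27 °C. The GH3.3 response in ein2 lhp1 did not differ from that in ein2 by a called amount (-0.41), but did so without replicate 2 of ein2 lhp1 at 27 °C (-0.57).

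The 13 other genes of the GH3 family include enzymes that act on jasmonate, on salicylate-related acids and on unknown substrates. Of these, 4 were under the count filter, GH3.4 with 2 counts in all libraries together. Of the 9 tested, 3 rose and 3 fell with warming in wild type (median -0.09), where 18.8% of all genes rose and 20.3% fell. Against wild type, the response in ein2 was lower for 4 of the 9 and higher for none (median -0.28, against -0.01 for all genes), where 12.2% of all genes were called lower and 11.9% higher. DFL2, which affects stem length in red light, fell in all 5 genotypes, from 53.6 and 56.8 to 40 and 41.3 CPM in wild type (log2 change -0.44 ± 0.06, adjusted p 3.54e-09, edgeR) and from 65.1 and 64.5 to 34.5 and 35.9 CPM in ein2 (-0.88 ± 0.062, 4.23e-20). GH3.9, a member expressed in roots, rose in wild type from 12.2 and 10.8 to 19.1 and 18 CPM (0.69 ± 0.11, adjusted p 2.27e-07, edgeR). In ein3 eil1 it was at 18.9 and 18.2, then 15.8 and 16.4 CPM. The response of GH3.9 was lower than in wild type there by 0.89 (-0.89 ± 0.15, adjusted p 1.34e-05, edgeR), in ein2 by 0.58 and in ein2 lhp1 by 0.64. AT1G48660, annotated only as an auxin-responsive GH3 family protein, was at 12 and 12.6 CPM in lhp1 at 27 °C, 3.72 and 4.54 CPM in wild type and 0.298 and 0.738 CPM in ein3 eil1. In ein2 lhp1 at 27 °C it was at 11.2 and 9.69 CPM. At 21 °C it was already at 8.96 and 8.65 CPM in lhp1 against 2.32 and 2.23 CPM in wild type (1.95 ± 0.19, adjusted p 6.33e-14, edgeR).

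Of 14 other genes that inactivate auxin or release it from conjugates, 11 were tested. With warming in wild type 3 rose and none fell (median 0.14), where 18.8% of all genes rose and 20.3% fell. In ein2, 4 of the 11 were higher than in wild type at 21 °C and 4 at 27 °C, and none was lower. Of all genes, 18.5% were higher at 21 °C and 19.8% at 27 °C. AT1G14120, annotated as a 2-oxoglutarate and Fe(II)-dependent oxygenase, held 29.1 and 30.2 CPM in wild type at 21 °C and 68.5 and 70 CPM in ein2, higher by 1.22 ± 0.063 log2 units (adjusted p 1.16e-27, edgeR). In ein2 lhp1 at 21 °C it was at 40 and 37.5 CPM, between wild type and ein2. In wild type the amidohydrolase genes ILL6 and IAR3 rose by 0.59 ± 0.098 and 0.25 ± 0.08 (adjusted p 8.14e-07 and 0.00792, edgeR) and were higher in ein2 than in wild type at 21 °C by 0.74 and 0.63. Another of that family, ILL1, rose in ein3 eil1 (0.44 ± 0.094, adjusted p 0.000109, edgeR), a response that did not differ from that in wild type by a called amount (0.29 ± 0.13, 0.177).

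Among 11 auxin receptor genes and ARF genes linked to GH3 expression, 7 rose and none fell with warming in wild type (median 0.24, against 0 for all genes), where 18.8% of all genes rose. The response was lower than in wild type for 7 of the 11 in ein2 (median -0.28), where 12.2% of all genes were called lower, and for 1 in each other mutant. ARF6, an activator of GH3.3, GH3.5 and GH3.6 in adventitious rooting, rose from 36.6 and 32.4 to 52.8 and 50.9 CPM in wild type (0.59 ± 0.067, adjusted p 9.71e-12, edgeR). In ein2 it fell from 47.8 and 50.7 to 45.2 and 41.4 CPM (-0.19 ± 0.068, 0.0295), and its response was lower than in wild type in all 4 mutants, by 0.78 log2 units in ein2, 0.63 in ein3 eil1, 0.46 in ein2 lhp1 and 0.43 in lhp1. At 21 °C ARF6 averaged 34.5 CPM in wild type and 40.6 to 49.2 CPM in the mutants. At 27 °C it averaged 51.9 CPM in wild type and 43.3 to 47.6 CPM in the mutants. The 4 ARF6 differences in response share the wild-type libraries. AFB1, an auxin receptor, rose by 0.91 ± 0.098 in wild type (adjusted p 1.37e-12, edgeR) and by 0.29 ± 0.099 in ein2. TIR1, another auxin receptor, rose by 0.25 ± 0.052 in wild type. ARF7, an activator of early auxin genes, rose by 0.24 ± 0.074 in wild type and fell by 0.20 in ein2 (-0.20 ± 0.076, adjusted p 0.0376, edgeR).

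Across the 10 group means of log2 CPM, the members did not follow a single pattern. As a description over 10 points from shared libraries, Pearson's r between 2 members was highest for GH3.5 and GH3.6 (0.768), then for GH3.6 and GH3.17 (0.669), and lowest for GH3.2 and GH3.17 (-0.124). Among 17497 genes at a mean of 2 CPM or more, those nearest to GH3.5 were NAC2 (r = 0.983), AGO10 (0.981) and SK32 (0.959), and 85 genes reached 0.9. For GH3.3 they were AT2G19940 (0.969), the kinesin gene ATK5 (0.946) and AT5G60590 (0.942), and 9 genes reached 0.9. ATK5 was at 21.4 CPM in ein2 at 27 °C against 10.2 CPM in lhp1 at 21 °C, the highest and lowest groups as for GH3.3. For GH3.17 they were AIL6 (0.981), MIZ1 (0.945) and the kinesin gene POK2 (0.941), and for GH3.6 RHL1 (0.934), AT3G46450 (0.916) and AT4G34480 (0.906). For GH3.1 they were AT4G37700 (0.96), AT1G75945 (0.953) and PROPEP1 (0.942), and for GH3.2 AT3G61870 (0.936), AT3G14760 (0.888) and AT1G56190 (0.844).

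The authors' deposited table of warming changes in wild type lists GH3.5 at 0.70 and GH3.6 at 0.27, both with an adjusted p under 0.05, and GH3.3 at -0.29 with 0.0864. In the authors' deposited tables GH3.5 passes in all 5 genotypes, GH3.3 passes in ein2, ein3 eil1 and lhp1, and GH3.6 in wild type, ein3 eil1 and lhp1. GH3.17 passes there in ein3 eil1 and not in ein2 (-0.20, adjusted p 0.0856, in the authors' deposited table), and GH3.2 in ein2 (0.39) and GH3.6 in ein2 lhp1 (0.17) do not pass, with 0.127 and 0.166 in the authors' deposited tables.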

How the data were processed

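The 20 libraries were deposited as gene counts, 4 libraries per genotype table. Per the file headers, the authors counted reads with featureCounts 2.0.3 on Araport11 genes, with both mates counted and no strand option; the submitters' processing notes name Subread 2.0.1, STAR, Trim Galore and TAIR10. Exon lengths are those the authors deposited in the same tables. Column names read 22 and 28 where the labels read 21 and 27 °C, and the labels' values were used. The authors also deposited log2 fold changes and adjusted p-values for 27 against 21 °C, made with DESeq2 per the submitters' processing notes; these are quoted as such.

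From the deposited counts, 21987 of 36799 genes passed edgeR's filterByExpr by group. They were fitted with edgeR 4.0.16 (R 4.3.3, limma 3.58.1; quasi-likelihood test, TMM scaling, 10 group means, all 20 libraries in 1 fit, two-sided). P-values were adjusted by Benjamini-Hochberg over all genes tested, separately for each comparison, and genes were called under 0.05. Errors are SE, and intervals are 95% with 69.6 degrees of freedom. Group means are given with SD over 2 libraries. CPM values use TMM library sizes. GH3.1 had 38 to 110 counts per library. Both mates of a fragment were counted, so that between 78.2% and 83.6% of counts from 5 to 50 were even, and fragments are fewer than counts. Nothing says that replicates came from separate cultures, so p-values measure the spread between these libraries, which may be technical.

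The members and lists were chosen with earlier results of these data known. Other genes are named by a rule: in each list, the 3 with the smallest p for warming in wild type and the 3 with the smallest joint p; for each member, the 3 genes with the highest r over group means. Alternatives were edgeR's scaling by relative log expression, no filter, DESeq2 1.42.0, a replicate block and a gene length correction with and without the block. Others were removal of ribosomal RNA regions, a fit of the compared groups alone and leaving out each library. These make 28 in all. A minimum change of 1 log2 unit was applied besides, to counts of calls alone, and is not among the 28. The scripts were tested on simulated data. Replicate numbers did not pair the samples. Reference loci were those of TAIR10.1, where 99.5% of gene identifiers were found. Promoter sequences come from RefSeq on that assembly. Protein sequences are not used here.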

Additional observations from a re-analysis of the deposited data

Results flagged for a closer look

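These 10 results stand out because the change with temperature differs between 2 genotypes by a test of the difference itself (edgeR's quasi-likelihood test, adjusted over all genes). Differences are on the log2 scale with adjusted p in parentheses.

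The log2 change of GH3.3 lay above that of wild type by 0.99 in ein2 (1.71e-06) and 1.02 in ein3 eil1 (1.42e-05). It did so by 1.27 in lhp1 (1.21e-08) and 0.57 in ein2 lhp1 (0.0159). The change itself was -0.29 in wild type and 0.28 in ein2 lhp1, and neither was called. The GH3.3 response in ein2 lhp1 differed from that in lhp1 by -0.70 (0.00323). In ein2 the responses of GH3.6 and GH3.17 differed from wild type by -0.38 (0.000474) and -0.35 (0.00095). In ein2 lhp1 they differed from ein2 by 0.28 (0.0228) and 0.31 (0.00616), and GH3.6 differed from lhp1 by -0.25 (0.0379). No explanation was tested for these differences.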

How the results depend on the processing

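Of 162 single tests of the 6 genes, 86 were called, and 57 of these were called under all 28 alternatives, which leave out the minimum change of 1 log2 unit. The other 29 lost the call under at least 1, and 13 of the 76 that were not called gained it under at least 1. No called value changed sign. In the same tests 14.2% to 46.4% of all genes were called, depending on the kind of comparison. The GH3.5 changes with warming in all 5 genotypes and the GH3.3 responses of ein2, ein3 eil1 and lhp1 against wild type were called under all 28, but under that minimum no warming change and, of these responses, only those of ein3 eil1 and lhp1 would be. With the replicate number as a block the calls were 15 for warming, 14 and 15 for mutants against wild type at 21 and 27 °C, 6 for responses against wild type, 3 in the joint test, 17 for ein2 lhp1 against single mutants, 8 for ein2 against ein3 eil1, 7 for departure from the sum and 4 for the response of ein2 lhp1 against single mutants, as without it. The numbers did not pair the samples: over 45 pairs of groups the correlation of deviations ran from -0.0324 to 0.0278. With that minimum, 0 calls were left for warming, 0 and 1 against wild type at 21 and 27 °C, 2 responses against wild type, 1 for ein2 lhp1 against single mutants, 2 for ein2 against ein3 eil1, 2 for departure from the sum and 0 for the response of ein2 lhp1. With a gene length correction, with or without the block, the last count was 2. Leaving out 1 library at a time gave 13 to 17 calls for warming, 12 to 14 and 9 to 15 against wild type at 21 and 27 °C, 5 to 7 responses, 3 in each joint test, 15 to 18 for ein2 lhp1 against single mutants, 7 to 8 for ein2 against ein3 eil1, 6 to 7 for departure from the sum and 2 to 4 for the response of ein2 lhp1. The cause of these losses was not tested. A group left with 1 library was assumed to vary like the others. Another scaling moved the median of all genes by at most 0.0228 log2 units. The level of GH3.1, at 38 to 110 counts, limits its intervals.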
